A study of Coturnix japonica with 24 samples.

Results

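The enzymes described here make serine, turn it into glycine, and carry methyl groups from methionine to their acceptors in 2 tissues of male Japanese quail (Coturnix japonica), the liver and the white adipose depot of the abdomen. They were found by gene symbol in the deposited tables of both tissues. Of the 10 symbols sought, 9 were present in both tables, among 17239 genes in all: PHGDH, PSAT1, PSPH, SHMT1, GLDC, MAT1A, GNMT, AHCY and PEMT. SHMT2, the mitochondrial serine hydroxymethyltransferase, was not analysed here.

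All birds had been kept on long days of 16 hours of light and then received a short photoperiod of 8 hours, called 8L, or longer ones of 12 and 16 hours, called 12v and 16v. The labels give no age, no length of exposure and no genetic or drug treatment, and 8L, the short day, served as the reference. Each photoperiod gave 4 libraries of each tissue, 24 libraries in all, made from polyadenylated RNA as amplified cDNA and read on a GridION nanopore sequencer. The labels do not tie libraries to named birds, so the p-values below measure the spread between these samples.

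Serine is built from a glycolytic intermediate by PHGDH, PSAT1 and PSPH in turn. Serine hydroxymethyltransferases convert it to glycine and load its spare carbon on folate, and the glycine cleavage system, of which GLDC is the decarboxylase, breaks glycine down in mitochondria. MAT1A makes S-adenosylmethionine, the cell's methyl donor, which GNMT spends on glycine and PEMT spends on phosphatidylethanolamine to make phosphatidylcholine, and AHCY clears the S-adenosylhomocysteine that is left. In mammals the liver is the main site of MAT1A, GNMT and PEMT activity, and PEMT supplies phosphatidylcholine for lipoproteins and bile.

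Total counts ran from 72125 (12v replicate 3) to 867217 per liver library and from 72716 (16v replicate 2) to 1389063 per adipose library. The tissue labels matched ALB, FABP4 and the sums of their markers, though not every single marker separated the tissues. ALB, the gene of serum albumin, had 46400 to 114000 CPM (counts scaled so that libraries of unequal depth can be compared) in liver and 0 to 523 in adipose libraries. FABP4, a fatty acid binding protein of adipocytes, had 13900 to 42900 CPM in adipose libraries and 0 to 3 in liver. The adipocyte markers listed summed to 882 to 1510 CPM in liver and 25100 to 58900 in adipose libraries. Hepatocyte markers summed to 87100 to 173000 CPM in liver and 2100 to 21900 in adipose libraries. Of single markers, AGPAT2 of adipocytes averaged 81 CPM in liver and 42.6 in adipose tissue, and APOA1 of hepatocytes 9770 and 7900. A score of 70 ribosomal protein genes, higher where these genes were higher, was 2.96 to 6.09 in the 8L liver libraries. Liver 12v replicates 1 and 3, at -6.78 and -7.95, and 16v replicate 1, at -9.05, were the lowest, and the remaining liver libraries lay between -0.80 and 2.93.

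In liver, PEMT was the enzyme that differed most with photoperiod, being about 11-fold lower at 16v than at 8L, and it was the only 1 of the 9 tested to pass an adjusted p of 0.05 in that comparison. MAT1A and GLDC had higher values at 16v than at 8L in every library and SHMT1 a higher mean, none past the threshold. Groups without overlap at 16v, in either direction, were found for 21.5% of all liver genes. The serine synthesis enzymes PSAT1 and PSPH, and GNMT, differed between photoperiods by less than their standard errors. Over all 4532 genes tested in liver by edgeR's quasi-likelihood test with Benjamini-Hochberg adjustment, 0.794% passed for 16v against 8L, 0.331% for 12v against 8L and 0.0221% for 16v against 12v. For 12v against 8L, 0 of the 9 enzymes passed (5 at an unadjusted p under 0.05, and 1, PEMT, by DESeq2 and by limma-voom). Of all liver genes, 18.3% had an unadjusted p under 0.05 in that contrast, while DESeq2 called 8.05% and limma-voom 0.287%. For 16v against 12v, 0 of 9 passed, with 0 at an unadjusted p under 0.05 and 0 by DESeq2 or limma-voom. Both contrasts with 8L use the same 4 short-day libraries, so their values are not independent of each other.

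**Figure D1:**
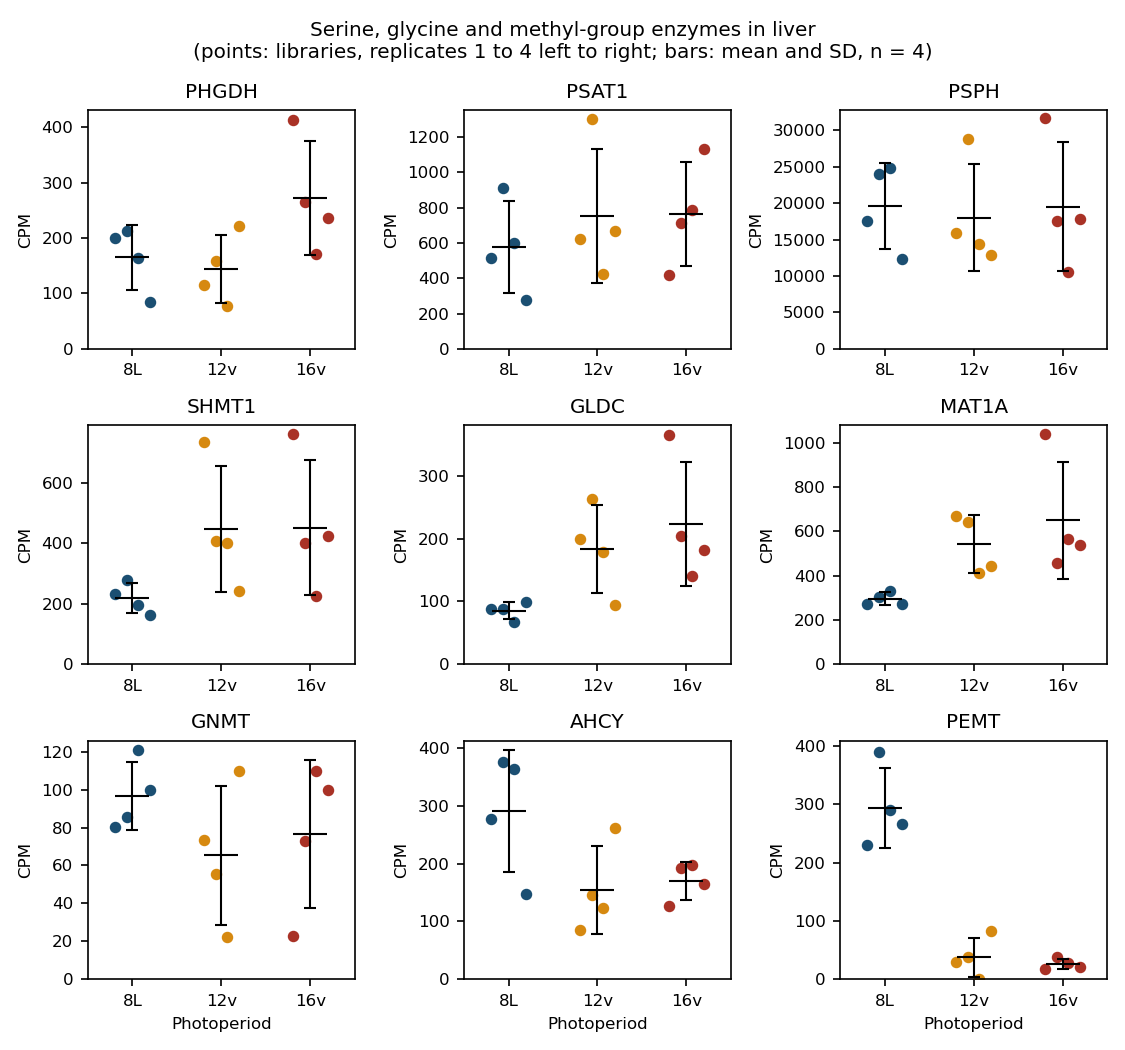
CPM of each enzyme in the 12 liver libraries by photoperiod, with replicates 1 to 4 from left to right (points) and the mean and SD of 4 libraries (bars). All 4 PEMT values at 8L (230 to 390 CPM) lie above all values at 12v and 16v (0 to 82.2 CPM), while the PSPH ranges of the 3 groups overlap.

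PEMT was measured at 230, 390, 291 and 266 CPM in the 8L liver libraries, from 100 to 181 counts each. At 12v it was 29.4, 37.5, 0 and 82.2 CPM, and at 16v 18.1, 38.7, 26.9 and 21.6 CPM. The short-day libraries were thus all above the libraries of longer days, with no overlap in either contrast. The mean was 294 ± 68.5 CPM (SD, n = 4) at 8L, 37.3 ± 34.0 at 12v and 26.3 ± 9.03 at 16v. PEMT fell by 3.46 ± 0.61 (SE) on the log2 scale from 8L to 16v (edgeR adjusted p = 0.0241). The log2 difference at 12v was -2.83 ± 0.60 (edgeR adjusted p = 0.0543). Between 16v and 12v it was -0.63 ± 0.58, about 1 SE. The 0 at 12v came from replicate 3, the library of 72125 counts. A read of PEMT adds about 3.23 counts to the gene, as described next, so the limit of 3 reads that a count of 0 allows is 108 CPM in that library, above all other longer-day values and below those of 8L. Groups without overlap, in either direction, were also found for 12.4% of all liver genes at 12v and for 21.5% at 16v. In bulk tissue, fewer cells of a type and less RNA per cell cannot be told apart.

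The table lists PEMT as 5 transcripts, of which 3 had the same total in liver, each 30.9% of the gene's count. The summed count was 3.23 times that of the largest transcript, so a read appears to be counted on each of several transcripts. Counted by its largest transcript, PEMT had 32, 51, 41 and 57 counts at 8L. The 12v libraries had 3, 8, 0 and 15 counts and the 16v libraries 2, 10, 6 and 6. The order of the groups was the same on either count. With 1 transcript standing for each gene the log2 difference of 16v from 8L was -3.37 ± 0.46 (edgeR adjusted p = 0.00513), in a fit that called 18.4% of its 2601 genes. With DESeq2, which called 12% of genes, it was -3.57 ± 0.48 (adjusted p = 1.77e-10).

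The PEMT call was lost in most fits with a library left out, while its log2 difference changed little. Leaving out any 1 library kept the log2 difference of 16v from 8L between -3.67 and -3.33. The adjusted p of the same edgeR test rose above 0.05 without 8L replicate 1 (0.0583), 2 (0.115), 3 (0.0882) or 4 (0.0574). It also rose above 0.05 without 16v replicate 1 (0.082), 2 (0.0756), 3 (0.0826) or 4 (0.12), and without 12v replicate 2 (0.0511). In these fits 0 to 15 of all genes passed, against 36 in the full fit, so the loss was not particular to PEMT. The score of ribosomal protein genes was highest in the libraries with most PEMT, those of 8L, so a fit cannot fully separate this score from photoperiod. With this score in the fit as a covariate the edgeR log2 difference was -2.64 ± 0.61 and the adjusted p 0.122, and without the 3 libraries of lowest score it was -3.26 ± 0.41 with an adjusted p of 0.0144. Summed over the 18 of 20 hepatocyte markers that the liver table lists, all with counts, CPM ran from 133000 to 173000 at 8L, 91300 to 157000 at 12v and 87100 to 127000 at 16v. The 8 endothelial markers, also all with counts, summed to 46 to 101 CPM at 8L, 105 to 257 at 12v and 121 to 179 at 16v. The 8 fibroblast and stellate cell markers, all with counts, summed to 189 to 316 CPM at 8L, 134 to 527 at 12v and 367 to 538 at 16v. The part of these cell markers in the PEMT result was not tested.

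MAT1A, the liver's S-adenosylmethionine synthetase, was measured at 272, 302, 331 and 269 CPM at 8L. It was 668, 640, 413 and 444 CPM at 12v and 1040, 455, 565 and 536 CPM at 16v. All libraries of longer days lay above all short-day libraries, with the highest value in 16v replicate 1. Such a lack of overlap with 8L, in either direction, was found for 12.4% of all liver genes at 12v and 21.5% at 16v. The mean was 294 ± 29.4 CPM (SD, n = 4) at 8L against 541 ± 131 at 12v and 649 ± 265 at 16v. The log2 difference was 0.89 ± 0.32 at 12v (edgeR adjusted p = 0.195) and 1.14 ± 0.32 at 16v (edgeR adjusted p = 0.0894). It reached an adjusted p of 0.0121 with DESeq2 and 0.0298 with 1 transcript per gene, the fits that called 12% and 18.4% of all genes. Without 16v replicate 1 the log2 difference was 0.82 ± 0.29.

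GLDC, the glycine decarboxylase, was measured at 87.4, 87.7, 66.7 and 98.5 CPM at 8L. It was 200, 264, 179 and 94.4 CPM at 12v and 366, 205, 141 and 182 CPM at 16v. The 16v libraries were all above those of 8L, whereas 12v replicate 4 fell within the short-day range. Of all liver genes, 21.5% had no overlap at 16v in either direction. The mean was 85.1 ± 13.3 CPM (SD, n = 4) at 8L, 184 ± 70.1 at 12v and 224 ± 98.7 at 16v. The log2 difference was 1.11 ± 0.40 at 12v (edgeR adjusted p = 0.196) and 1.39 ± 0.40 at 16v (edgeR adjusted p = 0.0933), and at 16v DESeq2 gave an adjusted p of 0.0217. Without 16v replicate 1 the difference at 16v was 1.04 ± 0.38. With the score of ribosomal protein genes in the fit it was 0.93 ± 0.43, and that of MAT1A 0.85 ± 0.35.

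SHMT1, the cytosolic enzyme that makes glycine from serine, was measured at 232, 279, 196 and 163 CPM at 8L. It was 738, 408, 402 and 243 CPM at 12v and 762, 400, 225 and 426 CPM at 16v. A single library of each longer-day group lay within the short-day range. The log2 difference was 1.04 ± 0.42 at 12v (edgeR adjusted p = 0.233) and 1.06 ± 0.42 at 16v (edgeR adjusted p = 0.173). The highest SHMT1 values, as for MAT1A at both longer photoperiods, were in 12v replicate 1 and 16v replicate 1, libraries of low ribosomal protein score. With that score in the fit as a covariate, the SHMT1 log2 difference at 12v was 0.36 ± 0.41 (edgeR adjusted p = 0.834). The 8L libraries had the highest scores (2.96 to 6.09, against at most 2.93 in the others), so the covariate fit cannot fully separate score from photoperiod. The part of that score in these differences was not tested.

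AHCY, which hydrolyses S-adenosylhomocysteine, was measured at 278, 376, 364 and 147 CPM at 8L. It was 85.3, 146, 123 and 262 CPM at 12v and 127, 193, 198 and 164 CPM at 16v. Of the short-day values 3 were the highest of the 12 and the other lay within the range of the longer days. The log2 difference was -0.90 ± 0.41 at 12v (edgeR adjusted p = 0.264) and -0.77 ± 0.40 at 16v (edgeR adjusted p = 0.297). With the ribosomal protein score in the fit, the AHCY difference at 12v was -0.36 ± 0.39. GNMT, the glycine methyltransferase that consumes S-adenosylmethionine, ran from 80.5 to 121 CPM at 8L, 22.3 to 110 at 12v and 22.6 to 110 at 16v. Its lowest values were in 12v replicate 3 and 16v replicate 1, and its groups overlapped, with log2 differences of -0.50 ± 0.52 and -0.33 ± 0.51.

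PSPH, the phosphatase of the last step of serine synthesis, took 1.8% of all liver counts and ranked 4 among 14983 genes by summed count. It ran from 12300 to 24800 CPM at 8L, 12900 to 28800 at 12v and 10500 to 31700 at 16v. The 3 ranges lay over each other, and the log2 differences were -0.12 ± 0.43 at 12v and -0.01 ± 0.43 at 16v, both smaller than 1 SE. Its 2 transcripts had 50.1% and 49.9% of the count, and by its largest transcript alone PSPH also ranked 4. PSAT1, the aminotransferase of the step before, ran from 278 to 909 CPM at 8L, 424 to 1300 at 12v and 416 to 1130 at 16v. Its log2 differences were 0.40 ± 0.45 and 0.41 ± 0.45, and the groups overlapped. PHGDH, the dehydrogenase that starts the pathway, ran from 83.8 to 212 CPM at 8L, 78.1 to 222 at 12v and 171 to 414 at 16v. Its log2 differences were -0.17 ± 0.42 at 12v and 0.72 ± 0.42 at 16v (edgeR adjusted p = 0.343), and the highest of the 12 values was in 16v replicate 1.

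**Figure D2:**
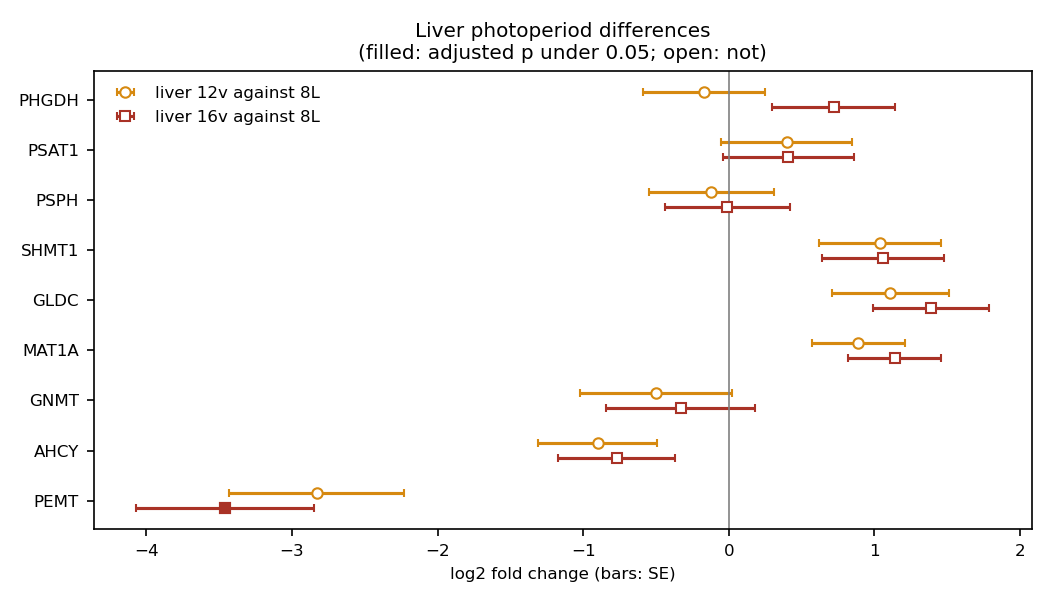
Log2 fold change of each enzyme in liver for 12v against 8L (circles) and 16v against 8L (squares), with bars of 1 SE. The filled square, PEMT at 16v (-3.46), is the only value with an adjusted p under 0.05, and SHMT1, GLDC and MAT1A lie above 0 in both contrasts.

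Over the 9 enzymes the median log2 difference was -0.12 at 12v and 0.41 at 16v, against -0.08 and 0.07 over all genes tested. An unadjusted p under 0.05 was reached by 5 of the 9 at 12v and by 4 of the 9 at 16v, while 18.3% and 21.3% of all genes reached it. The signs were mixed: 4 of 9 lay above 0 at 12v and 5 of 9 at 16v. Within the 16v group, replicate 1 was the highest library for 5 of the 9 enzymes and the lowest for the other 4. That library had the lowest ribosomal protein score of the 12.

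The liver genes whose log2 CPM followed PEMT most closely over the 12 libraries were UQCRQ (Pearson r = 0.973), BSG (r = 0.963) and SDHAF2 (r = 0.961). The 12 libraries share the split between short and longer days, and these values are a description with no test.

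Among 100 other genes of the surrounding pathways, 85 were in the liver table and 52 were tested. By edgeR 0 of the 52 passed in any liver contrast, with 7 at an unadjusted p under 0.05 for 12v against 8L, 14 for 16v against 8L and 1 for 16v against 12v. DESeq2 called 2 of the 52 at 12v and 10 at 16v, where it called 8.05% and 12% of all genes. Limma-voom called 0 and 4, where it called 0.287% and 4.88% of all genes. The closest to PEMT in function are the enzymes of phosphatidylcholine and phosphatidylethanolamine synthesis, of which 8 of 11 lay below 0 at 16v with a median log2 difference of -0.42. PCYT1A, the regulated enzyme of the choline route to phosphatidylcholine, was at 30.0 ± 6.87 CPM (SD, n = 4) at 8L, 4.42 ± 4.76 at 12v and 4.75 ± 3.72 at 16v. Its log2 difference at 16v was -2.66 ± 0.90 (edgeR adjusted p = 0.127). The 16v mean is near the floor, as 3 counts make 3.42 to 6.79 CPM in those libraries. PCYT2, which serves the ethanolamine route, was at 37.9 ± 11 CPM at 8L and 7.71 ± 5.36 at 16v, a log2 difference of -2.22 ± 0.68 (edgeR adjusted p = 0.11).

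The partners of GLDC did not share its sign. AMT, the aminomethyltransferase of the glycine cleavage system, was at 27.1 ± 15.7 CPM at 8L and 2.97 ± 2.07 at 16v, a log2 difference of -3.06 ± 0.86 (edgeR adjusted p = 0.0903). That 16v mean lies below the 3.42 to 6.79 CPM that 3 counts make in those libraries. GCSH, the carrier protein of that system, had a log2 difference of -0.48 ± 0.36 at 16v. ATF4, a transcription factor that in mammals drives serine synthesis genes, was at 123 ± 18.1 CPM at 8L, 28.7 ± 31.8 at 12v and 20.8 ± 8.26 at 16v (log2 difference at 16v -2.54 ± 0.63, edgeR adjusted p = 0.0639). ASNS, the asparagine synthetase that ATF4 also drives in mammals, was at 51 ± 47.3 CPM at 8L and 12.8 ± 10.1 at 16v (-1.96 ± 1.12).

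The other lists held values on both sides of 0 at 16v, except that of cysteine, taurine and glutathione. In the folate cycle 5 of 9 tested genes lay above 0, with FPGS, which adds glutamates to folate, at 1.39 ± 0.45 (edgeR adjusted p = 0.122) and MTHFS at 0.87 ± 0.49. Of the genes of cysteine, taurine and glutathione synthesis and use, 5 of 5 lay below 0, with CDO1, the cysteine dioxygenase, at -1.05 ± 0.37 and GCLC, a subunit of glutamate-cysteine ligase, at -1.25 ± 0.47. ADK, which removes the adenosine that AHCY releases, was at 1.10 ± 0.39 and AHCYL1 at -2.25 ± 1.67. Of the choline oxidation genes DMGDH was at 1.23 ± 0.55 and SARDH at 0.90 ± 0.49. GAMT, the methyltransferase that makes creatine, was at -1.89 ± 0.65 and TPMT at -1.57 ± 0.59. Of the genes of serine and glycine use, HAO1 was at 0.93 ± 0.38 and ALAS1, which draws on glycine for haem, at 1.91 ± 0.84. None of these passed the edgeR threshold.

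All 9 enzymes were higher in liver than in adipose tissue. When the 24 libraries entered 1 edgeR fit with 7276 genes, 9 of the 9 passed in that direction, where 57% of all genes passed in either direction and 23.5% with liver higher. For 8 of the 9, every liver library lay above every adipose library, which held for 6.21% of all genes, and PEMT was the exception. Within adipose tissue 2 of the 9 passed the count filter, and the others entered this fit through their liver counts. For those enzymes the filter itself favours a higher liver value, which the shares over all genes do not take into account. CPM in this comparison is scaled over both tissues together and is therefore not the same as above.

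**Figure D3:**
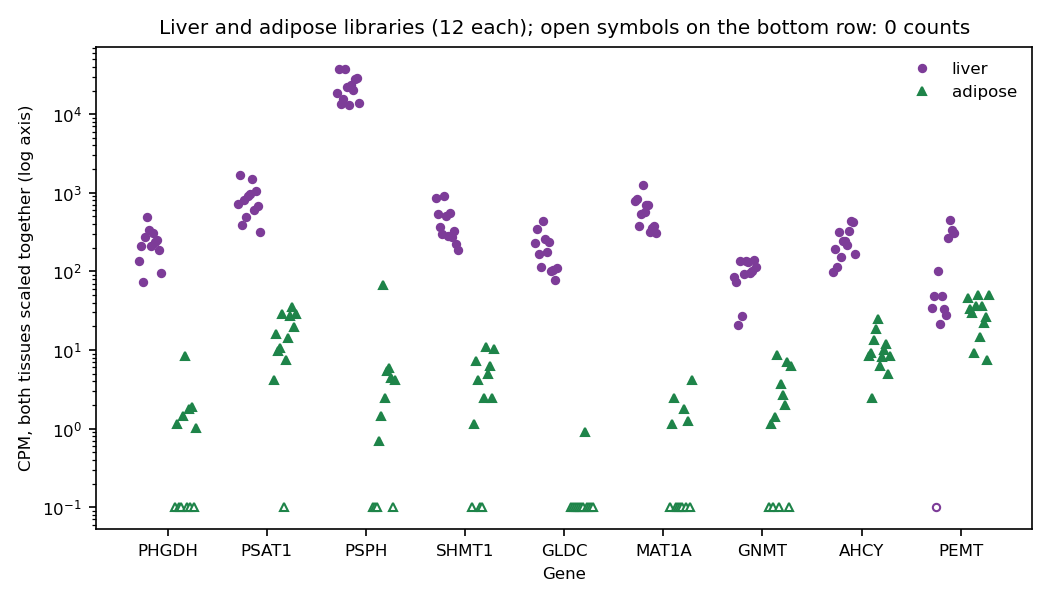
CPM of each enzyme in the 12 liver libraries (circles) and the 12 adipose libraries (triangles) on a log axis, with open symbols on the bottom row for libraries with 0 counts. PEMT is the only enzyme whose liver and adipose libraries overlap, at 0 to 456 and 7.41 to 50.3 CPM.

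PSPH had a median of 21500 CPM over the liver libraries (13100 to 37700) and of 1.96 CPM over the adipose libraries (0 to 67.1), a log2 difference of 12.97 ± 0.66 (edgeR adjusted p = 4.91e-13). It was at 0 in 4 of the 12 adipose libraries. PSPH and PHGDH entered this fit through their liver counts, and for them the filter itself favours a higher liver value. PHGDH, with 9 adipose counts in all, differed by 7.80 ± 0.47, and PSAT1 by 5.68 ± 0.37, with an adipose range of 0 to 35.4 CPM. The serine synthesis enzymes were thus each at a low level in adipose tissue, PSAT1 being the one that passed the count filter there.

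GLDC had 1 count in the 12 adipose libraries against 1087 in liver. Per scaled total, the totals that CPM uses in this comparison, the ratio was 1990 with an exact 95% interval of 356 to 78600. Such intervals and limits describe counting error alone. The interval pools the 12 libraries of each tissue and leaves out the spread between them. The amplified reads also carry no molecular identifiers, so copies of a molecule cannot be told from other molecules. MAT1A had 10 adipose counts, with 7 of the 12 libraries at 0, and differed by 8.99 ± 0.47 on the log2 scale (edgeR adjusted p = 6.45e-13). SHMT1 differed by 6.50 ± 0.45, GNMT by 5.10 ± 0.44 and AHCY by 4.53 ± 0.32. AHCY was counted in all 12 adipose libraries, at 2.44 to 25.1 CPM. GLDC, MAT1A, SHMT1, GNMT and AHCY also entered the fit through their liver counts, so the filter favours a higher liver value for them.

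PEMT had the smallest difference between tissues of the 9, 1.48 ± 0.36 on the log2 scale (edgeR adjusted p = 0.00141). Split by photoperiod, a split chosen after seeing the data, the difference passed at 8L alone. In the short-day libraries PEMT was at 341 ± 81.5 CPM (SD, n = 4) in liver and 26.4 ± 17.5 in adipose tissue, 3.65 ± 0.66 apart on the log2 scale (edgeR adjusted p = 0.000177). At 12v the levels were 45.9 ± 41.6 and 29.4 ± 15.2 CPM, 0.78 ± 0.63 apart (edgeR adjusted p = 0.354). At 16v they were 33.1 ± 11.8 and 34.4 ± 14.6 CPM, 0.02 ± 0.62 apart (edgeR adjusted p = 0.988). A pass at 8L alone does not show that the gap changed, and these values reuse the liver PEMT counts of the photoperiod contrasts. The direct test, the difference between the responses given below, did not pass by edgeR (adjusted p = 0.0716 at 16v and 0.188 at 12v). It did pass by DESeq2. The other 8 enzymes passed at each photoperiod. Of all genes 30.7% passed between tissues at 8L, 35.5% at 12v and 35.7% at 16v. Of those 8 enzymes, all but PSAT1 entered the fit through their liver counts. For them the filter favours a higher liver value, which these shares do not take into account.

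Within adipose tissue, 2 of the 9 enzymes, PEMT and PSAT1, had enough counts to be tested. Of 6494 genes tested there, 0.0154% passed for 12v against 8L and 0% for each of the contrasts of 16v with 8L and with 12v, with 324, 439 and 304 genes at an unadjusted p under 0.05. DESeq2 called 38 genes for 16v against 8L and 5 for 16v against 12v, and limma-voom called 0. Neither enzyme passed in any adipose contrast by edgeR, DESeq2 or limma-voom, and 1, PSAT1 at 12v, had an unadjusted p under 0.05.

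PEMT was measured in adipose tissue at 25.7, 30.5, 9.23 and 58.0 CPM at 8L. It was 55.9, 39.8, 35.0 and 10.8 CPM at 12v and 41.7, 72.9, 17.8 and 42.5 CPM at 16v. The groups overlapped throughout, and the log2 differences from 8L were 0.12 ± 0.59 at 12v and 0.34 ± 0.60 at 16v. The 72.9 CPM rests on 6 counts.

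**Figure D4:**
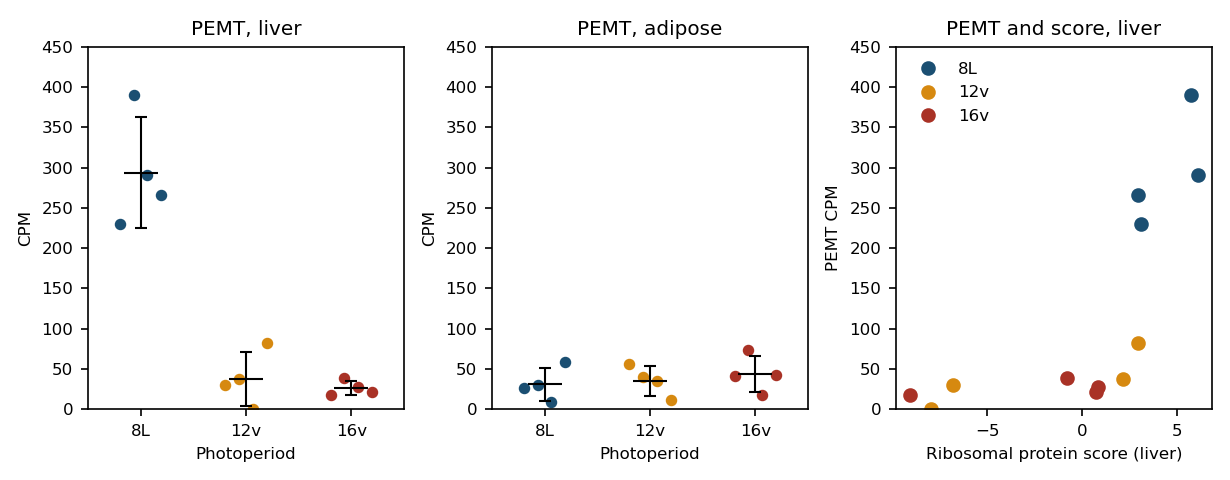
PEMT CPM by photoperiod in liver (left) and adipose tissue (middle), with points for libraries and bars for the mean and SD of 4, and liver PEMT CPM against the ribosomal protein score of the same libraries (right). The 8L liver libraries stand at 230 to 390 CPM and at scores of 2.96 to 6.09, and 2 of the 12v libraries, at scores of 2.17 and 2.93, have 37.5 and 82.2 CPM.

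The difference between the liver and the adipose response of PEMT was -3.64 ± 0.89 on the log2 scale for 16v against 8L (edgeR adjusted p = 0.0716) and -2.87 ± 0.88 for 12v against 8L (edgeR adjusted p = 0.188). The photoperiod difference of PEMT is therefore not shown to differ between the tissues by this test. With DESeq2 both differences passed, at adjusted p values of 0.00056 and 0.0133. By edgeR 0 of the 9 enzymes passed in either test of the response, with 4 at 12v and 1 at 16v at an unadjusted p under 0.05, 1 and 1 by DESeq2, and 0 and 1 by limma-voom. Of all genes 0.426% passed by edgeR at 12v and 0.302% at 16v, and 10.4% and 14.5% had an unadjusted p under 0.05. DESeq2 called 2.52% of all genes at 12v and 4.96% at 16v, and limma-voom 0.77% at 16v. Of the 9 enzymes, 2 (PEMT and PSAT1) passed the count filter within adipose tissue. The others entered this fit through their liver counts, so too few adipose counts stand behind their responses to judge them. PSPH and SHMT1, among the 4 at 12v, had 1 and 10 adipose counts in that group.

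PSAT1 in adipose tissue was measured at 31.5, 40.7, 24.6 and 33.8 CPM at 8L. It was 5.08, 19.2, 11.7 and 12.4 CPM at 12v and 33.4, 0, 8.92 and 16.6 CPM at 16v. The 12v libraries were all below those of 8L, as happened for 2.69% of adipose genes, whereas 16v overlapped 8L. The log2 difference was -1.39 ± 0.56 at 12v (edgeR adjusted p = 0.892) and -0.94 ± 0.55 at 16v (edgeR adjusted p = 0.811). The 0 was in 16v replicate 2, the library of 72716 counts. A read of PSAT1 adds about 1.98 counts, and the limit of 3 reads is then 72.3 CPM, above every value at 8L. The 8 fibroblast markers, all with counts, summed to 4540 to 10600 CPM at 8L, 4290 to 5740 at 12v and 1840 to 5190 at 16v, and their part in the PSAT1 values was not tested. The response of PSAT1 differed between liver and adipose tissue by 1.86 ± 0.77 at 12v (edgeR adjusted p = 0.384).

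The other 7 enzymes had 1 to 101 counts each over all adipose libraries and were not tested there. AHCY was at 10.3 ± 3.26 CPM (SD, n = 4) at 8L, 9.95 ± 5.30 at 12v and 18.7 ± 13.4 at 16v. SHMT1 was at 7.07 ± 3.77, 3.77 ± 3.92 and 3.85 ± 5.89 CPM, and GNMT at 4.40 ± 3.86, 0.757 ± 0.882 and 4.40 ± 4.19 CPM. These groups overlapped. Of the other genes of the surrounding pathways, 41 of 57 were higher in liver than in adipose tissue by edgeR and 4 were lower. Over all 7276 genes in that fit, 23.5% were higher in liver and 2435 genes were lower. Pathway genes with the smallest p in their lists included CDO1 (6.41 ± 0.29), SLC38A4, an amino acid transporter (11.11 ± 0.47), and GCSH (4.53 ± 0.28). As for the enzymes, the joint filter lets in genes counted almost only in liver, with SLC38A4 at a mean of 0.306 CPM in adipose tissue. In adipose tissue 0 of 31 tested passed by edgeR in any photoperiod contrast, with 2, 3 and 1 at an unadjusted p under 0.05 for 12v against 8L, 16v against 8L and 16v against 12v. DESeq2 called 1, GSTA4 at 12v (edgeR adjusted p = 0.592). The share of all adipose genes that DESeq2 called at 12v is not given here, so this call cannot be set against it.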

How the data were processed

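Each tissue has a deposited table of expected counts, meaning an estimated count of each transcript in each library, not normalized (46968 transcripts in liver, 51835 in adipose tissue). Per the submitters' processing notes the authors used minimap2 and Salmon, without versions. For the genome build and annotation: not given in the sources used here. Of the 56084 transcript accessions, 0 are in the quail RefSeq table, which lists all 9 symbols. Of the deposited values 99.49% (liver) and 99.56% (adipose) were whole within 1e-06.

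Transcript counts were rounded and summed per gene. After filterByExpr (count 10, total 15), genes entered edgeR's quasi-likelihood test (robust, TMM factors) with a mean per photoperiod in each tissue, or per tissue and photoperiod over both. Benjamini-Hochberg adjustment ran over all genes tested, with a threshold of 0.05. CPM uses TMM-scaled totals. SE was taken as the absolute log2 fold change divided by the root of F. A prior count of 2 entered the log2 CPM of the likeness measure. All enzymes are named; of other lists, up to 2 genes with the smallest p where none passed, up to 3 per direction between tissues, and PEMT's 3 nearest genes. GCSH as a partner of GLDC was chosen after its values were seen. The enzymes and lists were chosen with earlier results of these data known. No tested gene had counts near-identical to those of an enzyme with enough counts to compare, and no library pair was identical. Alternatives were RLE factors, library size alone, other filters, DESeq2, limma-voom, 1 transcript per gene, a replicate block, the ribosomal protein score (first principal component) as a covariate, fits of fewer groups and left-out libraries. The fit was tested on simulated data. Software was R 4.3.3, edgeR 4.0.16, limma 3.58.1, DESeq2 1.42.0, Python 3.11.15 and matplotlib 3.10.9.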

Additional observations from a re-analysis of the deposited data

Results flagged for a closer look

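PSPH in adipose tissue stood apart in 16v replicate 2. It was at 97.3 CPM there, against 1.67 to 6.21 CPM in the other 3 libraries of the group. The gap to the nearest library was 0.952 of the group's range, above the 95% critical value of Dixon's test for 4 samples. The value rests on 8 counts summed over 2 transcripts, of which the largest has 4, in the adipose library of 72716 counts. In the same library ALB was at 523 CPM (43 counts) against 1.49 to 37.3 CPM in the rest of the group, and TTR at 122 CPM (10 counts) against 0 to 7.25. Both are hepatocyte markers, and their part in the PSPH value was not tested. The 16 hepatocyte markers listed in adipose tissue summed to 11800 CPM there, against 5280 to 21900 CPM in the rest of the group. Most of that sum is APOA1, at a mean of 7900 CPM over the adipose libraries against 9770 in liver. The sum therefore cannot show whether markers restricted to liver were raised in this library. Of 44 groups of 4 that were looked at, this was the 1 found, where chance flags about 1 in 20 groups.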

How the results depend on the processing

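Of 400 values of single enzymes under alternatives other than leaving out a library, 362 kept their direction and side of the threshold, 20 gained a call, 3 lost one and 15 changed sign. The 9 calls between tissues held in every setting over all photoperiods, and within 12v or 16v alone, a split chosen after seeing the data, 8 did. For 12v against 8L in liver, 1 enzyme (PEMT) passed in place of 0 with library size alone, no count filter, the stricter filter, DESeq2, limma-voom and 1 transcript per gene, fits that called 67, 43, 86, 365, 13 and 141 of all genes against 15. For 16v against 8L, 2 passed with library size alone, the stricter filter and the 2 groups alone (88, 129 and 298 of all genes against 36), 3 with DESeq2 and 1 transcript per gene (546 and 478), and 0 with the ribosomal protein covariate (2). The liver response minus the adipose response passed for 1 enzyme at 12v with DESeq2 (183 of all genes against 31), and for 1 at 16v with RLE factors, the stricter filter, DESeq2, limma-voom, 1 transcript per gene and without libraries under 100000 counts (47, 65, 361, 56, 195 and 44 of all genes against 22). Leaving out 1 library gave 0 to 1 passing for 12v against 8L (1 without 12v replicate 4, where 292 of all genes passed), 0 to 2 for 16v against 8L (2, PEMT and GLDC, without 12v replicate 4, where 210 of all genes passed) and 0 to 1 for the response at 16v (1 without liver 12v replicate 3, where 51 of all genes passed). Over these leave-outs the calls among all genes ran from 0 to 292 at 12v, 0 to 210 at 16v and 0 to 51 for the response at 16v. The cause was not tested.

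The changes of sign were in values smaller than 1 SE. PSPH at 12v turned to 0.18 with library size alone and 0.16 without the 3 libraries of lowest ribosomal protein score. At 16v it turned to 0.25 with library size alone, 0.04 with the stricter filter, 0.11 with 1 transcript per gene, and 0.01 with the 2 groups alone and without libraries under 100000 counts. PHGDH at 12v turned to 0.08, 0.02 and 0.26 with library size alone, without libraries under 100000 counts and without the 3 libraries. GNMT turned to 0.31 at 12v and 0.35 at 16v with the covariate, and to 0.03 at 16v without the 3 libraries. PEMT in adipose tissue at 12v turned to -0.03 with limma-voom and -0.20 with 1 transcript per gene. With 1 library left out, PSPH ran from -0.46 to 0.00 at 12v and -0.35 to 0.20 at 16v, PHGDH at 12v from -0.45 to 0.02, PSAT1 at 12v from -0.01 to 0.66, and adipose PEMT at 12v from -0.18 to 0.60. Library size alone moved the median of all liver genes by 0.23 at 12v and 0.26 at 16v and that of the tissue difference by -0.54, and RLE factors moved the last by -0.22. The log2 differences of single enzymes between 16v and 12v were not followed.

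With a replicate block of the labels' sample numbers, PEMT at 16v was -3.48 (edgeR adjusted p = 0.0383) and the number of enzymes passing stayed at 0 for 12v and 1 for 16v. All liver genes called went from 15 to 26 at 12v and from 36 to 65 at 16v. Same-numbered liver libraries correlated at -0.17 to 0.21. In the check for identical pairs liver libraries correlated at up to 0.889, so the same-number values are not plain correlations of whole libraries. Low correlations cannot show whether the numbers pair the samples, because paired samples can also correlate weakly. The tag numbers that 11 liver and adipose libraries share gave correlations of -0.04 to 0.08. As a replicate block they left 9 of 9 enzymes passing between tissues, PEMT at 1.49 (adjusted p = 0.0279).

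Libraries of 72125 and 72716 counts limit what a count of 0 can show, and 7 of the 9 enzymes are below the counts needed for a test in adipose tissue.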
